A study of Mus musculus with 6 samples.

Results

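Expression of 34 mouse genes, for chromatin repressors of germline genes and repeats and for the TET enzymes listed with them, was examined in testis of mice with Rif1 deleted in germ cells. The members were taken by gene symbol from a list of writers, readers and erasers of DNA methylation and repressive histone marks. All 34 were found among the 50763 gene symbols of the count table, and all 34 were among the 18860 genes with enough reads to be tested. For description they were split into 7 genes of DNA methylation, 9 of histone H3 lysine 9 (H3K9) methylation and its readers, 4 of Polycomb repressive complex 2 (PRC2), 5 of the variant Polycomb complex PRC1.6, 6 of a MORC/ATRX group, and 3 deacetylase or demethylase genes that several of these complexes share.

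Most of these proteins, the TET enzymes apart, keep genes and transposons silent in layers. DNA methyltransferases copy or place methyl groups on cytosine, TET enzymes oxidize them, H3K9 methyltransferases and the HP1 proteins that bind their mark form heterochromatin, and Polycomb complexes mark histone H3 lysine 27 or H2A. PRC1.6 is known for holding germline and meiotic genes silent in cells that should not express them, through DNA-binding subunits that read E-box and E2F sites. In the male germline the same systems silence transposons while meiotic genes are switched on. Rif1, the deleted gene, encodes a large nuclear protein known for roles in replication timing and the choice of DNA repair pathway.

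RNA sequencing compared whole testis of 3 wild-type (WT) samples with 3 samples of the genotype sKO, at postnatal day 14. The sKO genotype is, by the series title, a germ-cell-restricted loss of Rif1 made before meiosis begins (a conditional knockout), and neither the Cre driver nor the deleted exons are given in the sources used here. Messenger RNA was captured on oligo-dT beads. The labels do not say whether the samples came from separate animals, and p-values measure only the spread between these samples. The labels name whole testis and no cell sort, so each value is a mixture of germ cells and somatic cells. A lower share of a cell type and less RNA per cell cannot be told apart in it.

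Libraries held 15941672 to 18296594 counts, and a count of 0 allows up to 0.165 to 0.187 CPM (the counts of every library scaled to the same total). Rif1 itself was at 96.5, 83.7 and 129 CPM in WT libraries 1, 2 and 3 and at 42.0, 46.4 and 49.2 CPM in sKO libraries 1, 2 and 3. Its log2 fold change was -1.17 with an SE of 0.15 and an edgeR adjusted p of 0.0145, and the groups did not overlap. That p was 0.137, 0.0618 and 0.120 when WT library 2, sKO library 1 or sKO library 2 was left out of the edgeR fit. Summed levels of 13 pachytene spermatocyte markers were 625 to 1360 CPM in WT and 209 to 377 CPM in sKO. Sums of 12 Sertoli cell markers were 6122 to 6993 CPM in WT and 7200 to 8685 CPM in sKO, of which Clu alone gave 2929 to 3614 and 3713 to 4615 CPM. Sums of 16 proliferation markers were 2132 to 2224 CPM in WT and 2016 to 2164 CPM in sKO. WT library 1 had the highest pachytene sum and sKO library 3 the highest of the sKO libraries, and sKO library 1 had an epididymis marker sum of 187 CPM against 5.06 to 27.9 CPM elsewhere. No marker of these lists was at 0 throughout a group.

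None of the 34 member genes passed the edgeR test in either direction, at an adjusted p of 0.05 over all genes tested. Over all genes 1.30% were called, 1.27% lower and 0.0318% higher in sKO. At an unadjusted p of 0.05, 2 members were lower, Pcgf6 and L3mbtl2, and 0 were higher, against 8.54% and 5.06% of all genes. DESeq2 called 1 member lower, Pcgf6, and 0 higher, against 3.82% and 0.297% of all genes. Limma-voom called 0 members, against 0.0795% of all genes lower and 0% higher. Estimates were lower in sKO for 16 members (47.1%) and higher for 18, against 44.7% lower over all genes.

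Log2 fold changes of the members ran from -0.69 (Pcgf6) to 0.25 (Morc1), with a median of 0.02 beside 0.03 over all genes. The 95% interval of the fold change lay within 0.5 of 0 on the log2 scale for 28 members (82.4%). Among all genes the share was 43.8%, and 72.5% among the 10734 genes in the range of mean levels spanned by the members other than Dnmt3l. The 6 members with wider intervals were Dnmt3l, Tet1, Tet2, L3mbtl2, Pcgf6 and Morc1. Pcgf6 alone had an interval that reached beyond 1.

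Groups of 3 libraries failed to overlap for 2 members that were lower in sKO, Pcgf6 and Morc2a, and for 5 that were higher, Dnmt3a, Tet3, Ehmt1, Suv39h1 and E2f6. Among all genes 10.7% were lower and 9.58% were higher without overlap. These 7 genes were singled out by their library values, and none passed the adjusted edgeR test.

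**Figure D1:**
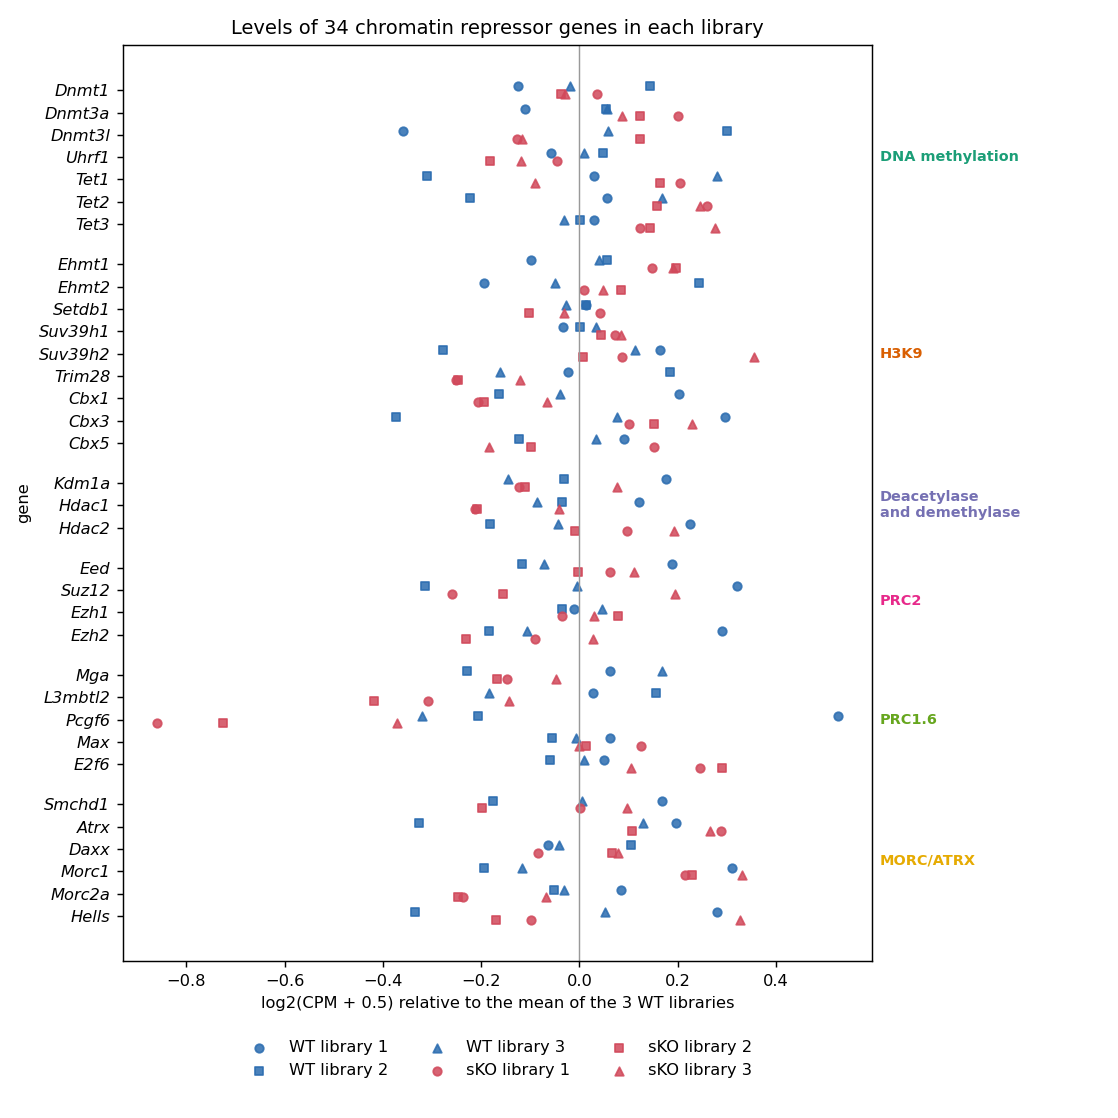
Log2(CPM + 0.5) of each of the 34 genes in each library, relative to the mean of the 3 WT libraries, with WT in blue and sKO in red and a symbol for each library number. Points of both groups mix for most genes, and Pcgf6 shows the widest scatter, from WT library 1 on the right to sKO library 1 on the left.

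Among the 7 DNA methylation genes, the maintenance pair was nearly level between the groups. Dnmt1, the maintenance methyltransferase, was at 259, 312 and 279 CPM in WT and 290.1, 276 and 277 CPM in sKO, a log2 fold change of -0.01 (95% interval -0.22 to 0.19). Uhrf1, which recruits Dnmt1 to hemimethylated DNA, was at 165, 178 and 173 CPM in WT and 167, 152 and 159 CPM in sKO, a log2 fold change of -0.12. All sKO values of Dnmt1 lay inside the WT range, and for Uhrf1 sKO library 1 did while the other sKO libraries lay below it.

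Dnmt3a encodes a de novo methyltransferase. Its levels were 189.9, 213 and 213 CPM in WT and 236, 223 and 218 CPM in sKO. All sKO libraries lay above all WT libraries, a log2 difference of 0.14 (SE 0.09, edgeR adjusted p = 0.546). Dnmt3l, the catalytically inactive cofactor that fetal prospermatogonia need for de novo methylation, had only 16 to 29 counts per library, and a log2 fold change anywhere within its interval of -0.83 to 0.67 was not detectable at this depth.

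The TET dioxygenases differed widely in level. Tet3 was at 184, 181 and 176 CPM in WT and 197, 199 and 219 CPM in sKO. The groups did not overlap, and the log2 fold change was 0.18 (SE 0.09, edgeR adjusted p = 0.386). Tet2 ranged from 18.9 to 24.9 CPM in WT and from 24.8 to 26.6 CPM in sKO, with overlap at WT library 3. Tet1 was at 8.01 to 12.3 CPM in WT and 9.40 to 11.7 CPM in sKO, inside the WT range. The median log2 fold change over the 7 genes was 0.08, and 0 were called.

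Among the 9 H3K9 genes 0 were called, their median log2 difference was 0.04, and all 9 intervals lay within 0.5 of 0. Ehmt1 and Ehmt2 encode GLP and G9a, the partner enzymes that place mono- and dimethylation in euchromatin. Ehmt1 was at 119, 133 and 132 CPM in WT and 142, 147 and 146 CPM in sKO, without overlap, at a log2 fold change of 0.18 (SE 0.09, edgeR adjusted p = 0.405). Ehmt2 was at 296, 401 and 327 CPM in WT and 341, 359 and 350.1 CPM in sKO, so its sKO libraries sat inside the WT range.

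Suv39h1 and Suv39h2 encode enzymes that trimethylate H3K9 in pericentric heterochromatin, the second of them known for its testis expression. Suv39h1 was at 112, 115 and 117 CPM in WT and 121, 118 and 122 CPM in sKO. The groups did not overlap, yet the log2 fold change was only 0.07 (95% interval -0.11 to 0.25). Suv39h2 was lower in level, at 16.9 to 23.2 CPM in WT and 20.7 to 26.5 CPM in sKO.

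Setdb1 and Trim28 act together at transposons, where zinc finger proteins bring Trim28 (KAP1) and it brings the methyltransferase Setdb1. Setdb1 was among the steadiest members, at 249.7, 249.9 and 243 CPM in WT and 254, 230.4 and 242 CPM in sKO. Trim28 was at 468, 540.3 and 426 CPM in WT and 399, 400.5 and 437 CPM in sKO. Of the sKO libraries only library 3 reached into the WT range of Trim28, and its log2 fold change was -0.21 (95% interval -0.44 to 0.02, edgeR adjusted p = 0.416).

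The HP1 genes gave estimates in both directions. Cbx1 (HP1 beta) had a log2 fold change of -0.16, Cbx3 (HP1 gamma) of 0.14 and Cbx5 (HP1 alpha) of -0.04. For Cbx3 the WT libraries were the more scattered, at 96.8, 60.7 and 83.1 CPM against 84.6, 87.6 and 92.4 CPM in sKO. Cbx1 was at 137, 138 and 151 CPM in sKO, in or below the WT range of 141 to 182 CPM.

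Kdm1a (LSD1), the demethylase of the CoREST complex, and the class I deacetylases Hdac1 and Hdac2 were not called. Kdm1a was at 143, 123 and 114 CPM in WT and 116, 117 and 133 CPM in sKO, all of the latter within the WT range. Hdac1 was at 159, 143 and 138 CPM in WT and 126, 127 and 142 CPM in sKO, a log2 fold change of -0.16. Hdac2 was at 163 to 216 CPM in WT and 184 to 211 CPM in sKO, at a log2 fold change of 0.09.

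Among the 4 PRC2 genes 0 were called, all intervals lay within 0.5 of 0, and the median log2 difference was -0.03. Ezh1, a catalytic subunit of PRC2, was nearly flat at 120.3, 118 and 125 CPM in WT and 118, 128 and 124 CPM in sKO. Ezh2, the other catalytic subunit, was at 111, 79.5 and 83.9 CPM in WT and 84.8, 76.9 and 92.1 CPM in sKO. Suz12, a core scaffold subunit, was at 189, 122 and 151 CPM in WT and 127, 136 and 174 CPM in sKO. In Ezh2, Suz12 and Eed, the reader subunit, WT library 1 was the highest of the 6 libraries.

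PRC1.6 held the lowest subset median, -0.13, and both members with an unadjusted p under 0.05, with 0 of its 5 genes called by edgeR. Pcgf6, the subunit that defines this variant of PRC1, was at 95.4, 57.3 and 52.9 CPM in WT and 36.2, 39.8 and 51.0 CPM in sKO. The groups did not overlap, but WT library 3 and sKO library 3 lay close together and WT library 1 stood far above the other WT libraries. The log2 fold change was -0.69 (SE 0.23, 95% interval -1.21 to -0.18), with an edgeR adjusted p of 0.211. An exact permutation test over the 6 libraries gave p = 0.1, the smallest that 3 against 3 can give.

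The call on Pcgf6 depended on the analysis. DESeq2 gave it an adjusted p of 0.0209 and edgeR without a low-count filter 5.19e-06, and leaving out single libraries in edgeR moved the adjusted p between 0.0943 and 0.561. Without WT library 1 the log2 fold change of Pcgf6 was -0.38 (edgeR adjusted p = 0.374), and without both libraries numbered 1 it was -0.29 (edgeR adjusted p = 0.655), the smallest size of all settings run. Without WT library 1 and sKO library 3 together, an omission chosen after seeing the data, it was -0.56 (edgeR adjusted p = 0.00923). The summed pachytene markers moved with it, at 1360, 933 and 625 CPM in WT libraries 1 to 3 and 209, 247 and 377 CPM in sKO libraries 1 to 3. Their part in the Pcgf6 difference was not tested.

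L3mbtl2, a chromatin-compacting subunit of PRC1.6, was at 103, 112 and 88.6 CPM in WT and 81.3, 75.3 and 91.2 CPM in sKO. sKO library 3 was above WT library 3, and the log2 fold change was -0.29 (SE 0.11, edgeR adjusted p = 0.274). Mga, the large scaffold that binds E-boxes with Max, was at 185, 151 and 199 CPM in WT and 160, 158 and 171 CPM in sKO. Max, its dimer partner, was at 65.0 to 70.6 CPM in WT and 67.6 to 73.8 CPM in sKO. E2f6, the subunit that reads E2F sites, was at 43.3, 40.1 and 42.1 CPM in WT and 49.6, 51.2 and 45.0 CPM in sKO. It was higher in all 3 sKO libraries, a log2 difference of 0.22 (SE 0.10, edgeR adjusted p = 0.386), so the estimates of the 5 subunits did not share a direction.

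The MORC/ATRX group had a median log2 fold change of 0.02 with 0 called. Morc2a, an ATPase that works with the HUSH complex, was at 234, 213 and 216 CPM in WT and 187, 186 and 211 CPM in sKO. It was the second member with all sKO libraries below all WT libraries, and its log2 fold change was -0.18 (SE 0.09, edgeR adjusted p = 0.418). Morc1, which is needed for transposon silencing in the male germline, was at 22.8, 15.9 and 16.8 CPM in WT and 21.3, 21.5 and 23.1 CPM in sKO, a log2 fold change of 0.25 with WT library 1 inside the sKO range.

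Atrx and Daxx form the chaperone complex that deposits histone H3.3 in heterochromatin. Atrx was at 99.9, 69.3 and 95.3 CPM in WT and 106, 93.7 and 105 CPM in sKO, and Daxx was at 143, 160.5 and 145 CPM in WT and 141, 156 and 158 CPM in sKO. Smchd1, known for its role on the inactive X chromosome and at imprinted clusters, was at 130.1, 102 and 116 CPM in WT and 116, 101 and 124 CPM in sKO. Hells, a remodeller that DNA methylation of repeats depends on, was at 270.1, 176 and 231 CPM in WT and 207, 198 and 279 CPM in sKO. All of these sKO ranges overlapped the WT range.

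**Figure D2:**
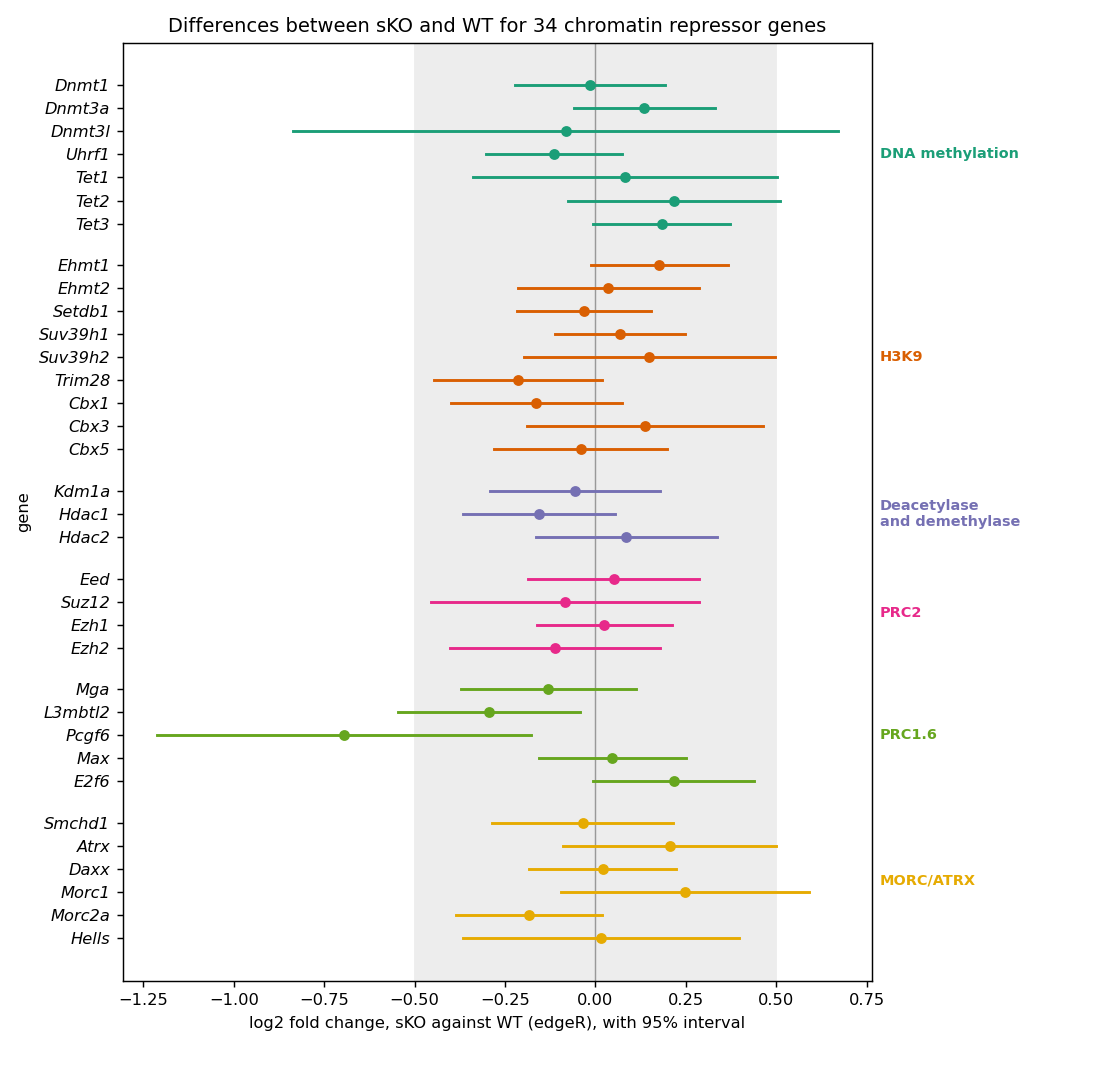
Log2 fold change of each gene, sKO against WT, from edgeR, with its 95% interval as a bar; the shaded band spans 0.5 to either side of 0. Intervals of 28 genes lie inside the band, and those of Pcgf6 and L3mbtl2 leave out 0 before adjustment over all genes.

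Levels per length of exon, as CPM per kilobase, placed Trim28 first among the members at 115 ± 14.0 (SD, n = 3) in WT. Ehmt2 followed at 62.2 ± 9.83 and Daxx at 47.4 ± 3.06. From Hdac1 at 42.6 ± 3.26 down to Cbx5 at 21.5 ± 1.63, and from Max at 18.8 ± 0.785 down to Tet3 at 10.8 ± 0.232, no neighbours in the order differed by more than the larger of their SDs. The first run held Hdac2, Uhrf1, Dnmt1, Cbx1, Setdb1, Morc2a, Hells, Suz12, Kdm1a and Suv39h1, and the other held L3mbtl2, Eed, Ezh1, Ehmt1, Ezh2, Pcgf6, Cbx3, Dnmt3a and Mga. Below them came E2f6 at 7.38 ± 0.288, Smchd1 at 5.82 ± 0.693, Suv39h2 at 4.72 ± 0.770 and Atrx at 4.05 ± 0.758. At the low end stood Morc1 at 2.85 ± 0.576, Tet2 at 1.32 ± 0.183, Tet1 at 0.660 ± 0.139 and Dnmt3l at 0.443 ± 0.136. Of the 33 gaps between neighbours, 11 were wider than the larger SD and 22 were not. Exon lengths came from a GRCm38 annotation, whereas the reads were counted on mm39.

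**Figure D3:**
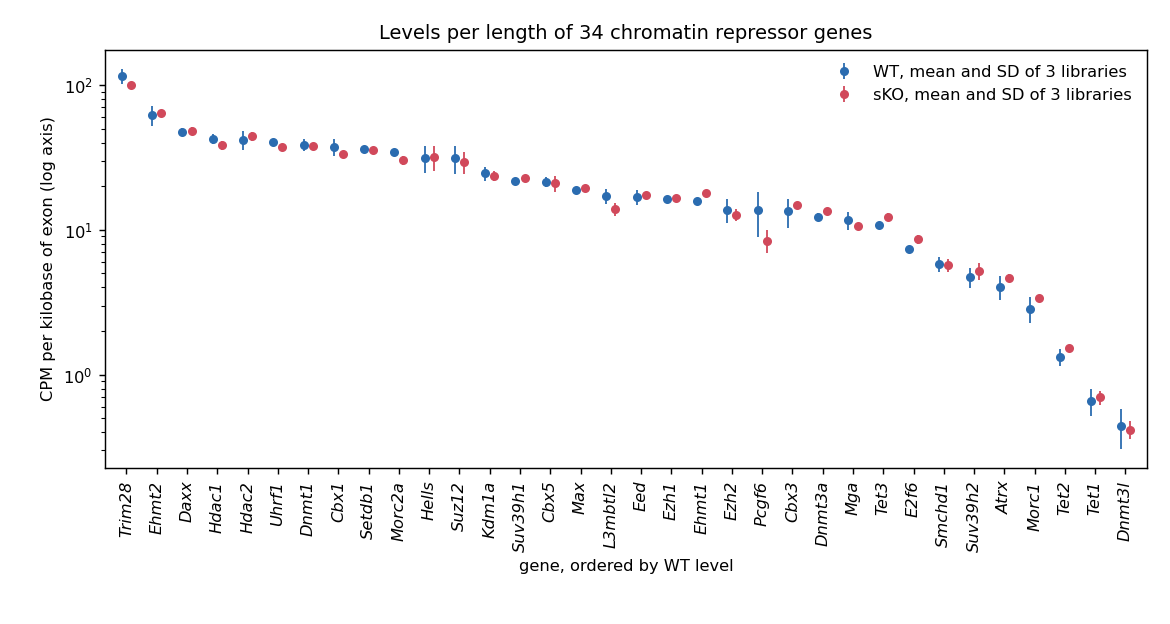
CPM per kilobase of exon on a log axis for the 34 genes, ordered by the WT mean; points are means and bars the SD of 3 libraries, WT in blue and sKO in red. Levels span from 115 for Trim28 to 0.443 for Dnmt3l in WT, and the bars of both groups overlap for most genes.

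Ratios between 2 genes within a library do not depend on how libraries are scaled, and 11 pairs were compared. The pairs were of paralogs, except Uhrf1 with Dnmt1, which are not related in sequence family but act together. The mean log2 ratio of 4 pairs differed without overlap, each with an exact permutation p of 0.1 and a Benjamini-Hochberg value of 0.275 over the 11 pairs. The Morc2a to Morc1 ratio was 3.36, 3.74 and 3.69 in WT and 3.14, 3.11 and 3.19 in sKO, a difference of -0.45. The Cbx3 to Cbx1 ratio was -0.91, -1.22 and -0.89 in WT and -0.70, -0.66 and -0.71 in sKO, a difference of 0.32. The Hdac2 to Hdac1 ratio differed by 0.25 and the Ehmt2 to Ehmt1 ratio by -0.13. The other pairs, of Suv39h, Ezh, Cbx5 with Cbx1, Tet, Dnmt3 and Uhrf1 with Dnmt1, differed by -0.18 to 0.11, with exact permutation p of 0.3 to 0.9.

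The libraries themselves left a pattern across the members. WT library 2 held the lowest value of the 6 libraries for 13 members (38.2%, against 21.7% of all genes), among them Tet1, Tet2, Cbx3, Suz12, Mga, Atrx, Morc1 and Hells. WT library 1 held the highest value for 11 (32.4%, against 25.1%), among them Pcgf6, Cbx1, Hdac1, Ezh2, Suz12 and Morc2a. sKO library 3 held the lowest value only for Cbx5. The median coefficient of variation among WT libraries was 11.9% for the members and 13.8% for all genes tested.

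Other genes of the same pathways, from lists compiled with earlier results of these data known, were not called by edgeR either. The counts were 0 of 14 DNA methylation partners (median log2 fold change 0.11), 0 of 20 H3K9 partners (-0.04), 0 of 16 deacetylase and demethylase partners (0.03), 0 of 11 PRC2 partners (0.02), 0 of 20 PRC1 partners (0.00078) and 0 of 10 MORC/ATRX partners (-0.03). At an unadjusted p of 0.05 there were 1 lower and 1 higher, 4 lower, 0, 1 lower, 3 lower, and 1 lower and 1 higher in these lists in turn. Over all genes 8.54% were lower and 5.06% higher at that p. DESeq2 called 1 H3K9 partner and 1 PRC2 partner lower, beside 3.82% of all genes. Limma-voom called 0 in these 6 lists, beside 0.0795% of all genes lower.

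The gene closest to the threshold was Phf1, a Polycomb-like accessory subunit of PRC2. It was at 70.3, 66.2 and 50.4 CPM in WT and 38.9, 40.1 and 46.6 CPM in sKO, without overlap, at a log2 fold change of -0.57 (SE 0.14, edgeR adjusted p = 0.0743, DESeq2 adjusted p = 0.00614). Kdm4d, a testis-expressed H3K9 demethylase, was at 12.3, 11.5 and 8.95 CPM in WT and 6.01, 3.39 and 8.08 CPM in sKO, at -0.90 (edgeR adjusted p = 0.163, DESeq2 adjusted p = 0.0325). The related demethylase genes Kdm3a and Jmjd1c had log2 fold changes of -0.47 and -0.31 (edgeR adjusted p = 0.253 and 0.169). The fourth H3K9 partner with an unadjusted p under 0.05 was Tasor, a HUSH subunit, at -0.37, named here after its value was seen. Phf1 ranked the libraries within each group as the pachytene sums given above did, and the part of these cells was not tested. Kdm4d did so in WT but not in sKO, where its lowest value was in library 2.

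In the PRC1 list the smallest p-values belonged to Pcgf5 (log2 fold change -0.46), a subunit of another PRC1 variant, Sfmbt1 (-0.27) and Scmh1 (-0.23), with edgeR adjusted p of 0.340, 0.355 and 0.363. Among the DNA methylation partners Mbd3, a NuRD subunit, was at -0.26, and Gadd45b and Gadd45a, known for links to demethylation, were at 0.31 and 0.28, with edgeR adjusted p of 0.322, 0.325 and 0.379. The deacetylase partners Rcor1, Sin3a and Hdac3 were at -0.16, -0.13 and -0.13. Morc4 and Cdca7l, in the MORC/ATRX list, were at 0.48 and 0.15.

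Morc2b, a germline-expressed retrocopy of Morc2a, had the largest fold change of the pathway lists. It was at 46.4, 21.8 and 15.5 CPM in WT and 0.841, 2.60 and 8.03 CPM in sKO, a log2 fold change of -2.85 (SE 0.84, edgeR adjusted p = 0.240). Leaving out single libraries moved it between -2.27 (without WT library 1) and -4.05 (without sKO library 3), and without both libraries numbered 1 it was -1.81 (edgeR adjusted p = 0.388). The omission chosen after seeing the data, of WT library 1 with sKO library 3, gave -3.46 with an edgeR adjusted p of 0.00295. The libraries followed the same order as the pachytene marker sums, whose part was not tested. Reads shared by Morc2a and Morc2b cannot be told apart where the sequences match, and how the authors counted such reads is not given, so both values are uncertain to that extent.

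A list of 24 germline genes known to be silenced in somatic cells by DNA methylation or PRC1.6 held calls in 1 direction. By edgeR 5 of the 24 fell and 0 rose, beside 1.27% of all genes called lower. Estimates were lower for 22, the groups did not overlap for 11, all lower (beside 10.7% of all genes), and the median log2 fold change was -0.50 beside 0.03 over all genes. DESeq2 called 11 lower, beside 3.82% of all genes, and limma-voom called 1 lower, beside 0.0795% of all genes. This list was chosen with earlier results of these data known, and 4 of its genes, Tex101, Sycp1, Sycp3 and Hormad1, also stand in the list of leptotene and zygotene markers. Stra8 also stands in the list of differentiating spermatogonia markers.

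The 5 genes that fell were those for 2 GPI-anchored surface proteins, Tex101 and Dpep3, the piRNA factors Piwil2 and Mov10l1, and Majin, which anchors telomeres to the nuclear envelope in meiosis. Tex101 was at 448, 386 and 345 CPM in WT and 217, 218 and 265 CPM in sKO, a fall of 1.68-fold (log2 fold change -0.75, SE 0.12, edgeR adjusted p = 0.0245). Piwil2 was at 477, 372 and 311 CPM in WT and 207, 209.5 and 257 CPM in sKO (log2 fold change -0.78, SE 0.15, edgeR adjusted p = 0.0417). Dpep3, Mov10l1 and Majin had log2 fold changes of -0.74, -0.71 and -0.72 (edgeR adjusted p = 0.0171, 0.0314 and 0.0480). All 5 had sKO library 3 as the highest sKO library, as did the pachytene marker sum.

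The next genes by p-value were Tdrd1, a Tudor protein of the piRNA pathway, at -0.71 (edgeR adjusted p = 0.0674), Brme1, a meiotic recombination factor, at -0.48, and Mael, another piRNA factor, at -0.50 (edgeR adjusted p = 0.117 and 0.134). Taf7l and Stra8, the genes with a higher estimate, were at 0.19 and 0.02. The number of list genes called by edgeR depended on single libraries. It was 0 when WT library 2, sKO library 1 or sKO library 2 was left out, 2 if WT library 1 was dropped, 9 if sKO library 3 was dropped and 2 if both libraries numbered 1 were. It was 15 if WT library 1 and sKO library 3 were both dropped, as chosen after seeing the data. Markers of spermatocytes were lower too. By edgeR 2 of 10 tested leptotene and zygotene markers (median log2 fold change -0.65) and 4 of 12 tested pachytene markers (median -2.24) were called lower. Over all genes 1.27% were called lower. The leptotene and zygotene sums were 1476 to 2414 CPM in WT and 996 to 1635 CPM in sKO. Sums of undifferentiated spermatogonia markers were 384 to 406 CPM in WT and 408 to 446 CPM in sKO. Estimates were higher for 12 of these 14 markers and lower for 2. Of the lower ones, Id4 was at 41.3, 27.9 and 23.4 CPM in WT and 14.3, 20.8 and 22.2 CPM in sKO. Its log2 fold change was -0.69 (edgeR adjusted p = 0.200, DESeq2 adjusted p = 0.0377). Sums of differentiating spermatogonia markers were 580 to 662 CPM in WT and 618 to 683 CPM in sKO. The part of germ cell composition in the germline-list difference was not tested.

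**Figure D4:**
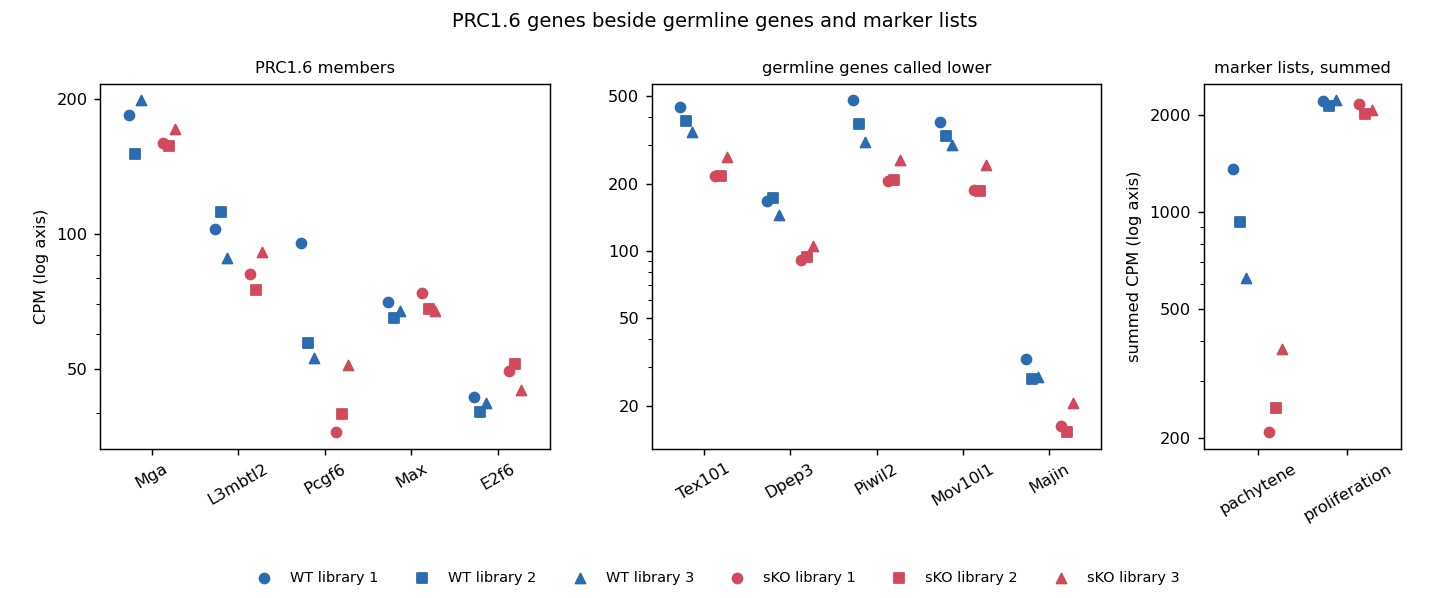
CPM on log axes in each library, WT in blue and sKO in red: the 5 PRC1.6 genes on the left, the 5 germline genes called lower in the middle, and the summed pachytene and proliferation markers on the right. The germline genes and the pachytene sum separate the groups, with sKO library 3 the highest of the sKO libraries; among PRC1.6 genes Pcgf6 and E2f6 separate, in opposite directions.

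Promoters of the germline list and of the members were read for the letters that the DNA-binding subunits of PRC1.6 are known to recognize. The 250 bases before the first listed start were taken from RefSeq on GRCm38.p6 and searched on both strands for CACGTG, the E-box core that MGA and MAX are known to bind and which reads the same on both strands, and for GCGGGA or its complement TCCCGC, an E2F core. These 2 motifs do not overlap each other in the promoters shown. Capitals mark the motifs. The first 4 promoters are the 4 of the list with both motifs. Among the called genes with a listed promoter, Mov10l1 is the one with CACGTG. Tex101 is a called gene with neither motif, as in 7 of the 21 list promoters, and Pcgf6 is the member with the largest difference. No promoter was listed for the called genes Piwil2 and Majin.
Ddx4, chr13:112652311-112652560, minus strand: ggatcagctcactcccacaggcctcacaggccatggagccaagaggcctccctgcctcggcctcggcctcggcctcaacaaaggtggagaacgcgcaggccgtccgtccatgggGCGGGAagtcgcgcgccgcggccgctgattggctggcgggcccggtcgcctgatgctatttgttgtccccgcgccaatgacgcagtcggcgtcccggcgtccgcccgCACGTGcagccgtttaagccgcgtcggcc
Mael, chr1:166238745-166238994, minus strand: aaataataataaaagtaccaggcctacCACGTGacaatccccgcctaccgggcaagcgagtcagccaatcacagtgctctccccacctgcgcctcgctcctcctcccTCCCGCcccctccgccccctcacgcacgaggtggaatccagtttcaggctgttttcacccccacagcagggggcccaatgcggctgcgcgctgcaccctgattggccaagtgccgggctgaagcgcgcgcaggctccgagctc
Sycp3, chr10:88459337-88459586, plus strand: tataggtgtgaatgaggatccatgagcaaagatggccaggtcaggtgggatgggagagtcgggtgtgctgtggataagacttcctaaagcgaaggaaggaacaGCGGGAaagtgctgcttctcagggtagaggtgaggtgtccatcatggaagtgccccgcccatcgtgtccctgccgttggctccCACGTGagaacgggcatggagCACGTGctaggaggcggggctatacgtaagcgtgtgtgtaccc
Hormad1, chr3:95559427-95559676, plus strand: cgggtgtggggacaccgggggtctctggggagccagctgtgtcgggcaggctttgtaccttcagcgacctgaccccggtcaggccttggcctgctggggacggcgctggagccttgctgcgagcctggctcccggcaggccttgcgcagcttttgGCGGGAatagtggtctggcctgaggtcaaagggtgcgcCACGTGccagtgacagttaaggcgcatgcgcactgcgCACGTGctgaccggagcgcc
Mov10l1, chr15:88982744-88982993, plus strand: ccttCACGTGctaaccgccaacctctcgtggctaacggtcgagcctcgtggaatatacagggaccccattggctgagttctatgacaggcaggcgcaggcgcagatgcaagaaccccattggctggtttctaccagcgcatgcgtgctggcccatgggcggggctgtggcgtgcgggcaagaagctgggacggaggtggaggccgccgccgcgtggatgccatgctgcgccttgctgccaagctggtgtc
Tex101, chr7:24672051-24672300, minus strand: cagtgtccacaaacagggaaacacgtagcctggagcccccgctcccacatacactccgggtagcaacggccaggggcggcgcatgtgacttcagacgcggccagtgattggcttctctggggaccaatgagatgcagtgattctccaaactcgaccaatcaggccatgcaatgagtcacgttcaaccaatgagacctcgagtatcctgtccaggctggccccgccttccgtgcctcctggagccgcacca
Pcgf6, chr19:47050907-47051156, minus strand: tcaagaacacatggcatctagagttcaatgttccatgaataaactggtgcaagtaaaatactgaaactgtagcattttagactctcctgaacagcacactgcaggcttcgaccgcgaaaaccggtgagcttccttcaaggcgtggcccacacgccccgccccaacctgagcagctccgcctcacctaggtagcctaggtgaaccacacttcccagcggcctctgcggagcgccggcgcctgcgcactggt

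The E-box core lay at different distances from the start in these promoters. In Ddx4, the germ cell RNA helicase, it lay 29 bases before the start. Sycp3, a synaptonemal complex protein, had it at 64 and 43 bases, and Hormad1, a meiotic axis protein, at 57 and 20 bases. Mael had it at 223 bases and Mov10l1 at 246 bases, far from the start, and the Tex101 and Pcgf6 windows held neither motif.

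CACGTG was present in 11 of the 21 list genes with a promoter in the table (52.4%), against 6.05% of all 27025 promoters and 10.1% of the 5837 promoters with as many CpG dinucleotides as the list median or more. The list was partly assembled from known targets, so this share is a description. Nor was CACGTG confined to it: 6 of 15 PRC1 partners held it (40%), as did 20% of DNA methylation and 20% of PRC2 partners. In the remaining pathway lists it was in 0 of 18 H3K9, 0 of 10 MORC/ATRX and 1 of 13 deacetylase and demethylase partners. Of 32 members with a promoter, 2 held CACGTG (6.25%), both in the H3K9 group. The E2F core was in 13 of these members (40.6%) and in 7 of the 21 germline list promoters (33.3%). Its share was 16.9% of all promoters and 45.8% of the CpG-rich ones. The 11 list genes with CACGTG had a median log2 fold change of -0.59, with 1 called, Mov10l1. The 10 without it had a median of -0.32, with 2 called, Tex101 and Dpep3. Piwil2 and Majin, also called, had no promoter to read and are in neither group. The difference between these medians was not tested. A match to these letters is not a binding site.

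Genes of the 2-cell-stage embryo, which loss of several of these repressors can release in embryonic stem cells, were close to absent. Of 20 such genes 19 were in the table, 11 had 0 counts in all libraries, and 1, Arg2, had enough reads to be tested, at a log2 fold change of 0.26 (SE 0.40, edgeR adjusted p = 0.823). The 6 Zscan4 genes together had 1 count in WT and 4 in sKO. Duxf3, the Dux gene of the table, had 9, 15 and 10 counts in WT and 7, 7 and 7 in sKO. At this depth no rise of the program was detectable. Transposon families themselves are not analysed here, because the table counts gene symbols.

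Imprinted genes, whose expression by parent of origin depends on DNA methylation, were tested for 18 of 20 listed. By edgeR, DESeq2 or limma-voom 0 were called, with 1 higher at an unadjusted edgeR p of 0.05, beside 5.06% of all genes. In the edgeR fit without WT library 1 and sKO library 3, 1 was called higher, Dlk1 (adjusted p = 0.0451, against 0.555 with all libraries), named here after its value was seen. The median log2 fold change of the 18 genes was 0.22, beside 0.03 over all genes. In sKO 14 estimates were higher and 4 lower (22.2%, beside 44.7% lower over all genes). Without overlap 2 were higher and 0 lower, beside 9.58% and 10.7% of all genes. Meg3, a maternally expressed long noncoding RNA, was at 133, 152 and 173 CPM in WT and 209, 194 and 174 CPM in sKO, a log2 fold change of 0.33 (SE 0.11, edgeR adjusted p = 0.210). Airn, an antisense RNA of the Igf2r locus whose reads cannot be told from those of Igf2r without strand, was at 0.63 and Plagl1 at 0.33, with edgeR adjusted p of 0.396 and 0.397. Many of these genes are expressed in somatic cells, and the Sertoli marker sums were higher in all 3 sKO libraries than in any WT library. Clu made up the largest part of these sums, at 2929, 3614 and 3468 CPM in WT and 4056, 4615 and 3713 CPM in sKO. Estimates of all 12 Sertoli markers were higher in sKO, and 5 were higher without overlap, beside 9.58% of all genes. The part of somatic cells in the imprinted-gene estimates was not tested.

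**Figure D5:**
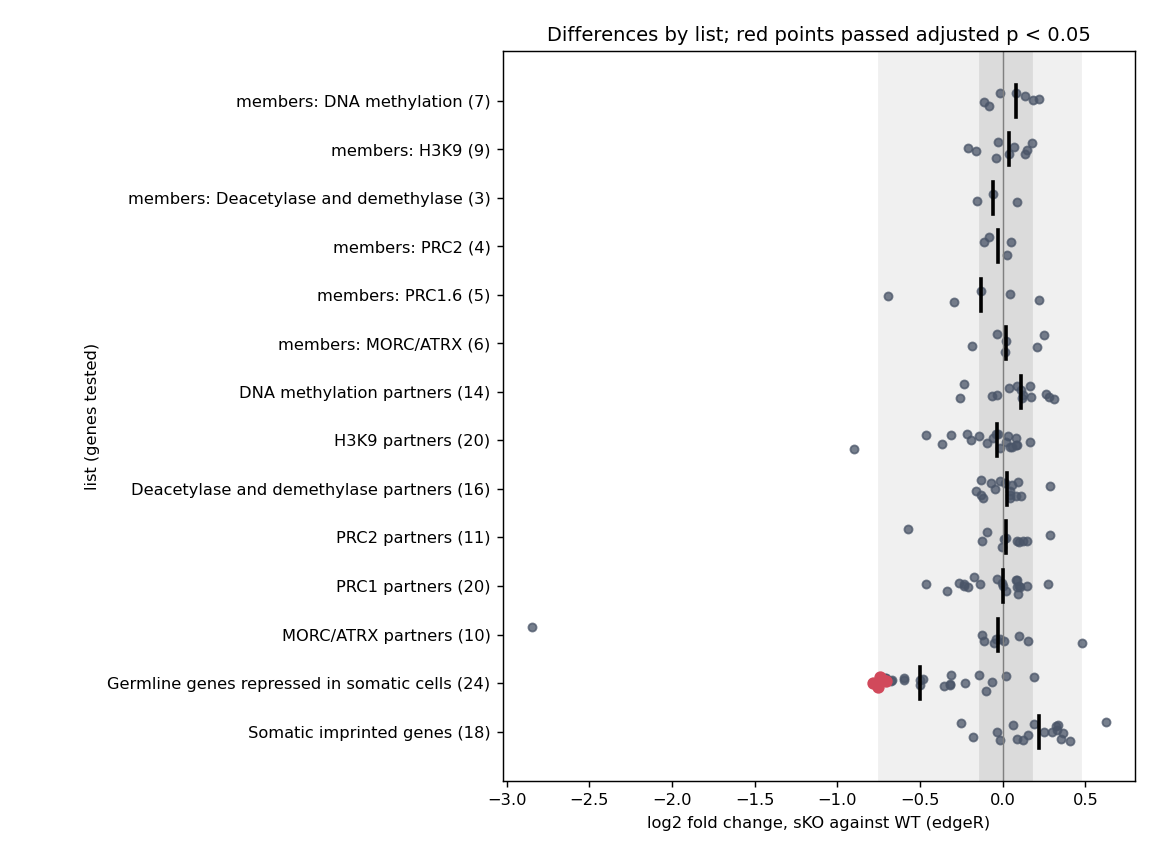
Log2 fold change, sKO against WT, of each tested gene in the member subsets and in the other lists; black bars are medians, red points passed the adjusted edgeR test, and the pale and darker bands span percentiles 5 to 95 and 25 to 75 of all genes. Of the lists drawn, which leave out the cell type markers, the germline list has the red points and a median of -0.50, and the point farthest left is Morc2b at -2.85.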

How the data were processed

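The members, subsets, partner and marker lists were chosen with earlier results of these data known. Poly(A) RNA of 6 testis samples was sequenced. The authors deposited raw counts per gene symbol, in 1 table. Trim Galore, HISAT2 and featureCounts were used, with build mm39, per the submitters' processing notes. For versions, annotation, strand and reads with several matches, the sources used here give nothing. Columns named con and scKO were read as WT and sKO and matched by replicate number.

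The counts were tested in edgeR 4.0.16 (limma 3.58.1, R 4.3.3): filterByExpr, TMM, robust quasi-likelihood F test and Benjamini-Hochberg adjustment over the 18860 genes tested, with 3 WT against 3 sKO and no block. Intervals are 95% on moderated degrees of freedom. CPM used TMM library sizes, and figures add 0.5 CPM. Exon lengths came from GENCODE M21 (GRCm38) by symbol. Ratios of the 11 gene pairs were tested by an exact two-sided permutation test. Alternatives were other scalings and filters, DESeq2 1.42.0, limma-voom, the block and omitted libraries. DESeq2 gave 18859 genes an adjusted p. Scripts were tested on simulated data.

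All members are reported. From other lists the text names genes past the threshold and up to 3 others with the smallest p. Clu is named for its part in the Sertoli sums. No library repeated another of its group: chi-square over degrees of freedom was 4.45 to 20.2 for the pairs. Limits from a count of 0 rest on 3 counts and cover counting error only.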

Additional observations from a re-analysis of the deposited data

How the results depend on the processing

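Under 15 alternative settings and 1 more chosen after seeing the data, no member was called except Pcgf6, which was called by DESeq2, without a low-count filter, and without WT library 1 and sKO library 3 together (the alternative chosen later): 1 lower member in each. The genes called lower and higher over the whole table numbered 992 and 154 without a filter and 145 and 1 with a mean of at least 1 CPM. They numbered 721 and 56 in DESeq2 and 15 and 0 in limma-voom. Without both libraries numbered 1 they were 155 and 5, and in the alternative chosen later 691 and 55. Leaving out single libraries gave 0 to 624 lower and 0 to 31 higher. The 0 arose without WT library 2, sKO library 1 or sKO library 2, where edgeR counts at an unadjusted p of 0.05 were 1662 and 1102, 1410 and 431, and 1221 and 503. Germline genes called lower numbered 11 without a filter, 3 with a mean of at least 1 CPM, 11 in DESeq2, 1 in limma-voom, 2 without both libraries numbered 1, 15 in the alternative chosen later, and 0 to 9 with single libraries left out. H3K9 partners called lower numbered 2 without a filter, 1 in DESeq2, 2 in the alternative chosen later and 0 to 2 with single libraries left out. PRC2 partners numbered 1, 1, 1 and 0 to 1 under the same settings, PRC1 partners 1 without a filter and 1 in the alternative chosen later, which also called 1 MORC/ATRX partner lower and 1 imprinted gene higher. The median log2 fold change over all genes was 0.015 with RLE factors and in DESeq2, -0.0027 without a filter, -0.0014 without both libraries numbered 1, 0.013 in the alternative chosen later, and -0.0024 to 0.037 with single libraries left out. Without both libraries numbered 1 the medians of DNA methylation and H3K9 members were 0.015 and -0.042. With single libraries left out these ran from 0.0041 to 0.16 and -0.023 to 0.034, that of PRC1.6 from -0.21 to -0.042, and those of deacetylase and demethylase, PRC2 and PRC1 partners from -0.050 to 0.034, -0.049 to 0.062 and -0.065 to 0.018. The first of these partner medians was -0.055 in the alternative chosen later. The causes were not tested.

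Deviations of same-numbered libraries correlated at -0.34, 0.12 and -0.28, and those of differently numbered libraries at -0.26 to 0.45. Same-numbered libraries were thus not the more alike. With 3 libraries per group this cannot tell whether the numbers mark a litter or batch, and the labels do not say. With the replicate block 21 genes were lower and 0 higher, against 1324 and 605 at an unadjusted p of 0.05, and 0 germline genes were called. Members with small estimates, up to 0.14 on the log2 scale, changed sign when libraries were left out. Depth limits Dnmt3l (16 to 29 counts) and the genes of the 2-cell-stage embryo.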
